A study of Rattus norvegicus with 12 samples.

Results

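The genes described here are 6 matrix metalloproteinases (Mmp2, Mmp3, Mmp9, Mmp12, Mmp13 and Mmp14) and 3 of their tissue inhibitors (Timp1, Timp2 and Timp3), chosen by name. That choice was made with earlier results of these data known. Each of the 9 was represented by a single probe set on a whole-transcript rat gene array, and together they are 9 of 14329 genes with a value. RNA came from 2 laryngeal muscles of male F344 rats. The posterior cricoarytenoid (PCA) abducts the vocal folds and the adductor complex (AC) closes them. Injured rats had the recurrent laryngeal nerve cut on 1 side with 1 cm of it removed. Controls had the same exposure without nerve injury, so every rat had been operated on 1 week before sampling. Each muscle was sampled in injured and in control animals on 3 arrays apiece, which gives 4 groups and 12 arrays. Each surgery group held 10 animals, of unstated age. Neither the animal behind an array, nor pooling, nor the side of the larynx sampled is stated in the sources used here. The p-values therefore rest on array-to-array spread alone, and that spread may be technical.

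Matrix metalloproteinases are zinc-dependent proteases that are made as inactive precursors and cut collagens, gelatin, elastin, proteoglycans and cell-surface proteins. Timps block them by binding the active site, and Timp2 also helps the membrane protease Mmp14 to activate Mmp2. In injured muscle and nerve these proteases are known for clearing damaged matrix and for opening a path to invading leukocytes and regenerating cells.

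Values are log2 expression values, and a difference of 1 on this scale is a 2-fold difference. Array medians lay between 7.11 and 7.17, and the number of arrays limits the precision. Of 14 skeletal muscle markers 11 were measured and gave a mean log2 value between 11.97 and 12.94 in each array. PCA control 1, PCA injury 2 and AC injury 2 stood apart by thyroid and parathyroid transcripts, with a mean log2 value over 14 markers of 9.88, 9.67 and 8.43 against 6.33 to 7.199 in the other arrays. Results were also computed without these 3 arrays, which left the count of members past the test at 8 for injury in PCA, 0 for the difference of effects and 3 between control muscles, but took it from 1 to 0 for injury in AC. In whole tissue, fewer cells of a type and less RNA per cell cannot be told apart.

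Mmp13, Mmp12 and Mmp3 lie at one end of a row of 10 metalloproteinase genes on chromosome 8 that also holds Mmp10. The 120 bases before the transcription start of these 4 genes are shown because they share letters at a like distance from the start. They are from RefSeq on build GRCr8, and 6 of the 9 genes had a promoter in that table. Capitals mark TGANTCA, a pattern that takes in the letters bound by AP-1 factors of the Fos and Jun families, and TATAAA, the TATA box. N was searched as any base, and it is C in Mmp13 and G in Mmp12, Mmp3 and Mmp10.
Mmp13, chr8:12782709-12782828, forward strand: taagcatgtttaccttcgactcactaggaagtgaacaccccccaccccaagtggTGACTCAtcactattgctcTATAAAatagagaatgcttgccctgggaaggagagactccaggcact
Mmp12, chr8:12866532-12866651, forward strand: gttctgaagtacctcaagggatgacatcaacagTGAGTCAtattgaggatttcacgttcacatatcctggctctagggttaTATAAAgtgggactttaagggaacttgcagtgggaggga
Mmp3, chr8:12925161-12925280, forward strand: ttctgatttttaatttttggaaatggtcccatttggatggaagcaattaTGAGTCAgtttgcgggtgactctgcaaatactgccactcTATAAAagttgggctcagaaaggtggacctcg
Mmp10, chr8:12974587-12974706, forward strand: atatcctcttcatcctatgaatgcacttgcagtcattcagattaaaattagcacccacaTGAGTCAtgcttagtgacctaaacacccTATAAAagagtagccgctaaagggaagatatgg
The TGANTCA letters began 66 bases before the start of Mmp13, 87 before Mmp12, 71 before Mmp3 and 61 before Mmp10. Each of these 4 promoters also held TATAAA, whose nearest copy began 47, 39, 32 and 33 bases before the start of Mmp13, Mmp12, Mmp3 and Mmp10. Searched on both strands over 250 bases before the start, TGANTCA occurred in 6.34% of 33469 promoters and TATAAA in 12.9%. These 2 motifs share no position here. The share with only C or G at N was not counted. The same window of Timp1, Timp2 and Timp3 held neither. A further search, for the Ets factor letters AGGAAG (29.5% of promoters), found them in Mmp13 and Mmp3 but not in Mmp12 or Mmp10, and in Timp1 at 2 places but not in Timp2 or Timp3. A match describes letters and is no evidence of binding in these muscles.

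The main question was how these genes differed after nerve injury in the PCA. Of the 9 genes 8 rose in injured PCA and 0 fell, while Timp3 did not pass the test. The rises ran from 0.60 for Timp2 to 4.50 for Mmp12 on the log2 scale. Across all genes 25.8% passed in this comparison and 13.3% passed as higher. The median difference was 1.58 over the 9 genes and -0.03 over all genes. Because the 9 were chosen with earlier results of these data known, these comparisons do not describe the whole family. Among 15 other measured metalloproteinase and Timp genes, 4 rose and 2 fell in injured PCA, with a median of 0.15. For 7 of the 9, all 3 injured arrays lay above all 3 controls, an order that held for 18.2% of all genes (37% did not overlap in either direction). It failed for Mmp13 and Timp3.

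Mmp12, the macrophage elastase, showed the largest rise of the 9. It stood at 6.94, 6.91 and 6.99 in PCA control arrays 1, 2 and 3, and at 11.81, 11.59 and 10.94 in injured arrays 1, 2 and 3. The controls were nearly level and every injured array lay far above them. The difference was 4.50 ± 0.55 (SE, n = 3 arrays per group), or 22.6-fold, with an adjusted p of 0.000428 from limma with Benjamini-Hochberg adjustment over all genes. Mmp9, the gelatinase B of neutrophils, macrophages and osteoclasts, stood at 5.20, 5.35 and 5.55 in controls and at 10.13, 8.97 and 8.86 after injury. Again the groups were far apart, with injured array 1 highest. Its difference was 3.95 ± 0.42, or 15.5-fold (limma adjusted p = 0.000272).

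Mmp14, the membrane-anchored protease that cuts fibrillar collagen and activates Mmp2, stood at 9.29, 9.77 and 9.38 in PCA controls and at 11.39, 10.99 and 10.81 in injured PCA. The groups did not overlap, and the rise was 1.58 ± 0.22 (limma adjusted p = 0.000801). Mmp2, the gelatinase A made widely by fibroblasts, stood at 11.39, 11.95 and 11.97 in controls and at 12.56, 12.29 and 12.33 after injury. PCA control 1 was well below the other controls. The rise of Mmp2 was small, 0.62 ± 0.15 or 1.54-fold (limma adjusted p = 0.0109), and it lost the call with only the PCA groups fitted (adjusted p = 0.0549).

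Mmp13, the main interstitial collagenase of rodents, which hypertrophic chondrocytes and bone cells also make, was the most uneven member. It stood at 5.32, 6.45 and 5.40 in PCA controls and at 9.30, 6.35 and 7.84 after injury. Injured array 2 lay within the control range, so the groups overlapped. The rise was 2.11 ± 0.58 (limma adjusted p = 0.0209), and it lost the call without PCA control 1, PCA control 3 or PCA injury 1 (adjusted p = 0.0678, 0.0734 and 0.0538; 1.37 without PCA injury 1) and with only the PCA groups fitted (adjusted p = 0.0923). Mmp3, a stromelysin that cuts proteoglycans and activates other metalloproteinases, stood at 5.27, 5.39 and 5.52 in controls and at 6.76, 5.57 and 6.27 after injury. Injured array 2 was barely above the controls. The rise was 0.81 ± 0.26 (limma adjusted p = 0.0428). Mmp3 lost the call without any of PCA control 1, 2 or 3, PCA injury 1 or 3, AC control 2 or 3, or AC injury 3 (adjusted p from 0.0541 to 0.15; 0.53 without PCA injury 1). The call was also lost with median scaling (adjusted p = 0.0542), with only the PCA groups fitted (0.0975) and with array weights (0.58, adjusted p = 0.139). Its mean over the arrays, 6.29, was also below 6.61, the value under which the dimmest 30% of genes lay, and it was the only member there by that mean. In the PCA controls alone Mmp9 and Mmp13 lay below 6.61 too, so the folds of Mmp3, Mmp9 and Mmp13 against PCA controls rest on weak signals that were not shown to be above background. The PCA controls of Mmp12, at 6.91 to 6.99, lay above 6.61 but below the lowest array median, 7.11. They were not shown to be above background either.

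Among the inhibitors, Timp1, the Timp that cytokines induce, stood at 9.56, 10.01 and 9.64 in PCA controls and at 11.93, 11.18 and 11.39 after injury. The injured arrays were all more than 1 unit above the highest control. Timp1 rose by 1.76 ± 0.24 (limma adjusted p = 0.00067). Timp2, which is made constitutively in many tissues, stood at 10.97, 11.46 and 11.26 in controls and at 11.97, 11.72 and 11.79 after injury. It rose by 0.60 ± 0.12, or 1.51-fold (limma adjusted p = 0.0048), with groups that did not overlap. Timp3, the Timp that stays bound to matrix and also inhibits Adam17 and Adamts proteases, stood at 11.58, 11.18 and 11.17 in controls and at 10.39, 11.46 and 11.04 after injury. Its groups overlapped, and the difference of -0.35 ± 0.24 (95% interval -0.87 to 0.18; limma adjusted p = 0.327) did not pass.

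**Figure D1:**
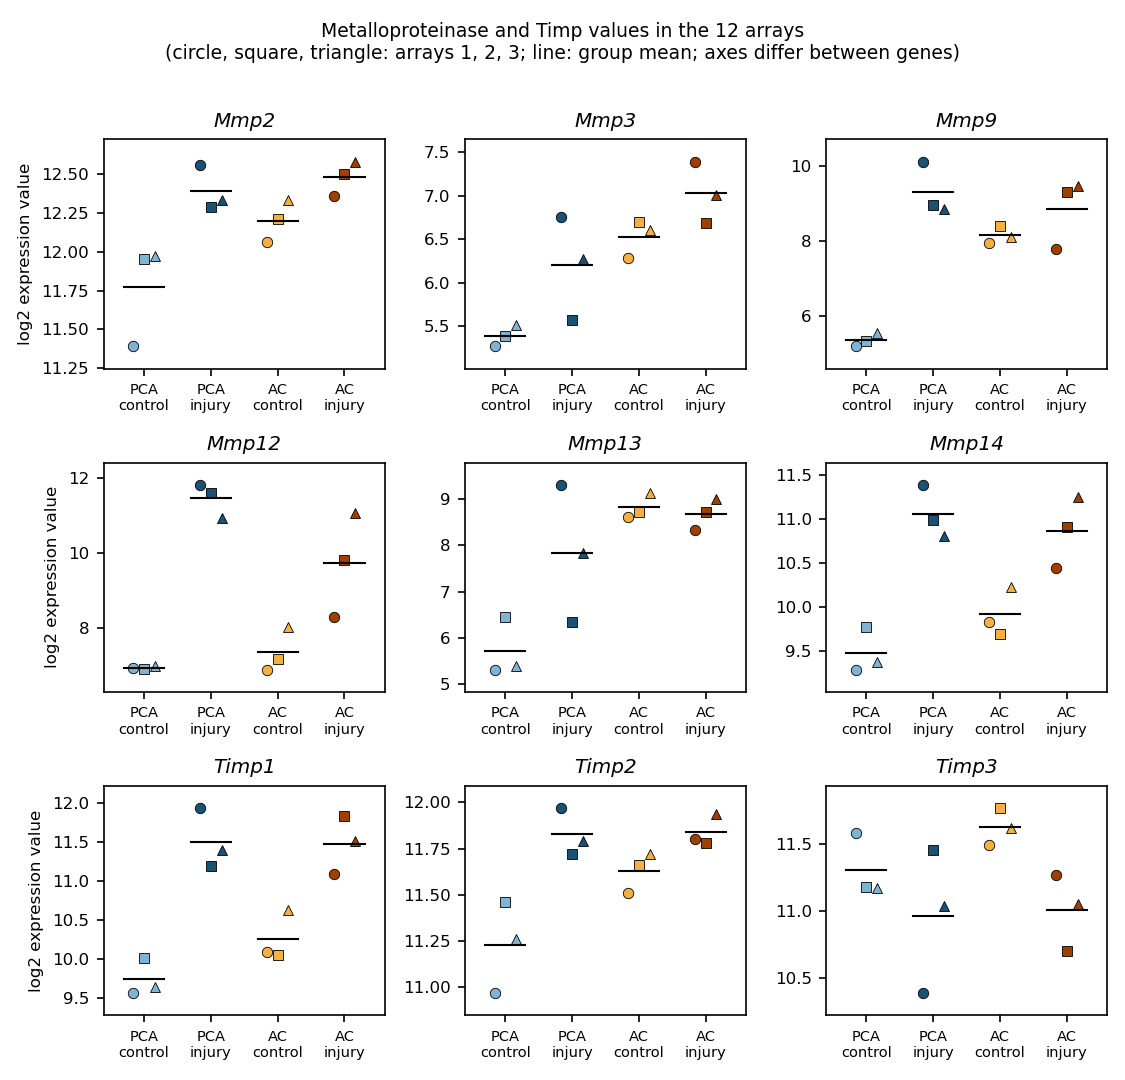
Log2 expression value (vertical axis, different for each gene) of the 9 genes in the 12 arrays, by group; each symbol is 1 array and the line is the mean of 3. Mmp9 and Mmp12 in injured PCA lie at 8.86 to 10.13 and 10.94 to 11.81, far above the PCA controls at 5.20 to 5.55 and 6.91 to 6.99, whereas injured and control PCA overlap for Mmp13 and Timp3.

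The members varied together between arrays. PCA injury 1 was the highest injured PCA array for 8 of the 9 genes and the lowest for Timp3. PCA control 1 was the lowest PCA control for 7 of 9. AC injury 1 was the lowest injured AC array for 6 of 9 and AC injury 3 the highest for 6 of 9. Macrophage and fibroblast markers followed the same arrays. The macrophage mean log2 value over 17 measured markers was 10.39 in PCA injury 1 against 9.96 and 9.95 in PCA injury 2 and 3, and the fibroblast mean over 12 was 10.16 against 10.02 and 9.90. Both means were lowest among PCA controls in PCA control 1, lowest among injured AC arrays in AC injury 1 and highest there in AC injury 3. Among AC controls, array 1 was lowest for 7 of 9 members and the macrophage mean, but array 2 for the fibroblast mean. The mean of 12 Adam and Adamts proteases was also highest in PCA injury 1 and lowest in PCA control 1 within their groups. Skeletal muscle markers were lowest among injured PCA arrays in PCA injury 1, at 11.97 against 12.24 and 12.72.

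Marker lists of other cell types and tissues also differed in injured PCA, where 13.3% of all genes passed as higher and 12.5% as lower. In injured PCA 16 of 17 macrophage markers rose, among them Cd68 (2.76 ± 0.27), and their mean log2 value was 7.996 to 8.76 in controls and 9.95 to 10.39 after injury. Of 12 fibroblast markers 7 rose, with a mean of 8.97 to 9.35 in controls and 9.90 to 10.16 after injury. Of 12 neutrophil markers 3 rose, with a mean of 5.76 to 5.90 in controls and 6.12 to 6.45 after injury. With 0 falling, that count is above the 13.3% of all genes that passed as higher. It is near the 25.8% that passed in either direction. The 3 that rose were the receptors Cxcr2 (1.85 ± 0.25) and Csf3r (1.81 ± 0.41) and the ficolin Fcnb (0.83 ± 0.27). The other 9 did not pass, from Mpo (-0.47 ± 0.29) to S100a9 (0.96 ± 0.38), with the granule genes Elane (0.05 ± 0.26) and Ngp (-0.05 ± 0.52) between them. Of 9 squamous epithelium markers 8 rose, with a mean of 8.11 to 10.15 in controls and 10.59 to 11.11 after injury. Of 13 cartilage markers 11 fell and 1 rose, with a mean of 9.06 to 9.55 in controls and 8.05 to 8.27 after injury, and 5 of 11 skeletal muscle markers fell. The part of these cells in the member results was not tested. A fit with the squamous marker score as a covariate cannot separate that score from injury, because the score did not overlap between the PCA groups. In that limma fit Mmp9 (4.63, adjusted p = 0.0325) and Mmp12 (5.01, adjusted p = 0.0382) passed. The other 6 calls were lost with differences of 0.66 for Mmp2, 1.01 for Mmp3, 1.75 for Mmp13, 1.43 for Mmp14, 1.73 for Timp1 and 0.45 for Timp2. Without the covariate these differences were 0.62, 0.81, 2.11, 1.58, 1.76 and 0.60 in the same order. The standard errors were larger with it (0.27, 0.47, 1.05, 0.40, 0.44 and 0.21). Without the 3 arrays high in thyroid and parathyroid transcripts, the same 8 genes passed.

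**Figure D2:**
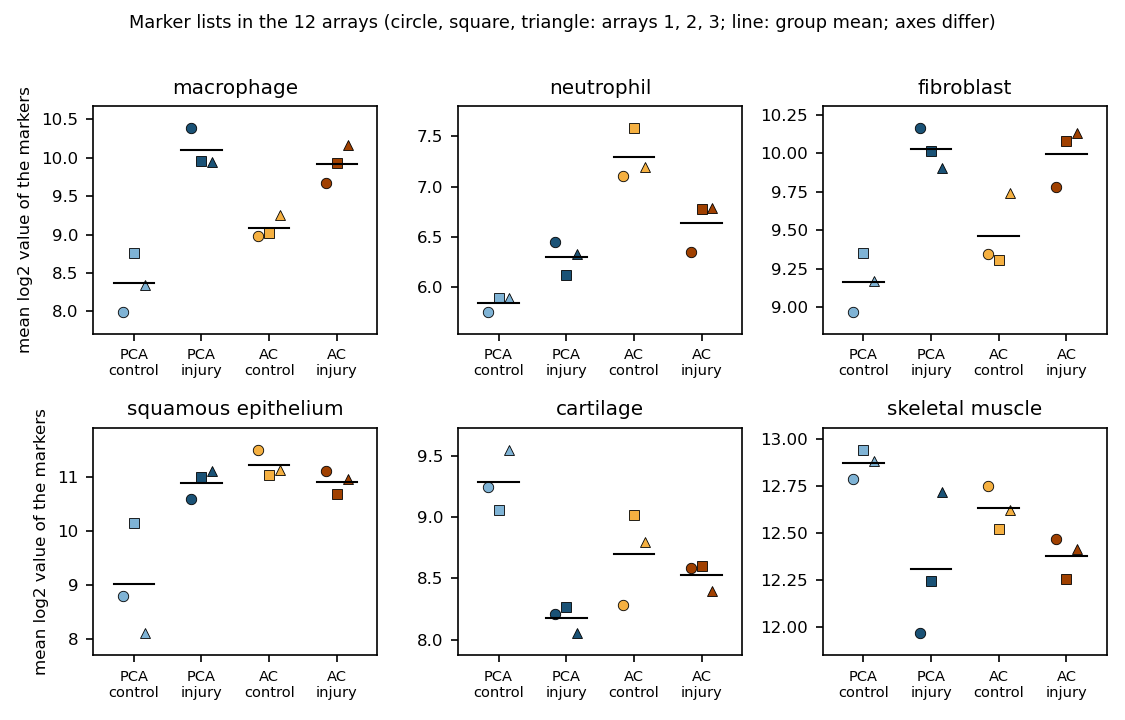
Mean log2 value of 6 marker lists (vertical axis, different for each list) in the 12 arrays, by group; each symbol is 1 array and the line is the mean of 3. The macrophage mean of every injured PCA array, 9.95 to 10.39, lies above the PCA controls at 7.996 to 8.76, and the neutrophil mean is highest in the AC controls at 7.10 to 7.58.

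The next question was whether the same genes differed in the injured AC. Of the 9 genes 1 rose there, Timp1, and 0 fell, where 1.91% of all genes passed, 1.15% as higher and 0.761% as lower. The median difference was 0.50 over the 9 genes and 0.02 over all genes. Groups did not overlap for 6 of 9 (5 above and Timp3 below the controls), against 28.4% of all genes. Timp1 stood at 10.08, 10.04 and 10.62 in AC controls and at 11.08, 11.83 and 11.51 in injured AC. All injured arrays lay above all controls, and the rise was 1.23 ± 0.24, or 2.34-fold (limma adjusted p = 0.0354). The call was lost without PCA control 3, AC control 1, AC control 2, AC injury 2 or AC injury 3 (adjusted p = 0.055, 0.133, 0.151, 0.149 and 0.111), with a difference of 1.05 to 1.42 whichever array was left out. It was also lost without the 3 arrays high in thyroid and parathyroid transcripts (1.05, adjusted p = 0.142) and with the squamous score as a covariate (1.23, adjusted p = 0.0618).

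Mmp12 in the AC stood at 6.90, 7.18 and 8.03 in controls and at 8.30, 9.80 and 11.07 after injury. The groups did not overlap, but the injured arrays spread over 2.77 log2 units, against 0.87 in injured PCA. Its difference was 2.35 ± 0.55 (95% interval 1.15 to 3.56) and missed the threshold (limma adjusted p = 0.0543). It passed without AC injury 1 (3.07, adjusted p = 0.0184), PCA injury 1 (adjusted p = 0.0438) or PCA injury 3 (adjusted p = 0.0449). Mmp14 stood at 9.83, 9.70 and 10.23 in AC controls and at 10.45, 10.91 and 11.25 after injury. Its groups were also apart, at 0.95 ± 0.22 (limma adjusted p = 0.0563), and it passed without the same single arrays (adjusted p = 0.0292, 0.0352 and 0.0429). An array of the PCA bears on these p-values because all groups were fitted together.

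Mmp9 stood at 7.97, 8.40 and 8.12 in AC controls and at 7.81, 9.32 and 9.48 after injury. Injured array 1 lay below every control, so the groups overlapped, and the difference was 0.71 ± 0.42 (limma adjusted p = 0.381; 1.24 without AC injury 1 and 0.40 without AC injury 3). Mmp13 stood at 8.60, 8.71 and 9.13 in AC controls and at 8.32, 8.71 and 8.99 after injury, nearly the same range (difference -0.14 ± 0.58, 95% interval -1.41 to 1.13; limma adjusted p = 0.923). Mmp3, from 6.28 to 6.70 in controls and from 6.68 to 7.39 after injury, differed by 0.50 ± 0.26 (limma adjusted p = 0.317). Mmp2 and Timp2 differed by 0.28 ± 0.15 and 0.21 ± 0.12 (limma adjusted p = 0.325 and 0.367), although neither overlapped between the groups. Timp3 stood at 11.49, 11.77 and 11.62 in controls and at 11.27, 10.70 and 11.05 after injury, below every control at -0.62 ± 0.24 (limma adjusted p = 0.177).

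Marker lists differed in the AC as well, where 1.15% of all genes passed as higher and 0.761% as lower. Of 17 macrophage markers 5 rose (0 to 9 with 1 array left out), with a mean log2 value of 8.98 to 9.26 in controls and 9.67 to 10.17 after injury. AC injury 1, the array in which Mmp9, Mmp12, Mmp14 and Timp1 were lowest among the injured, also held the lowest macrophage and fibroblast means of the injured AC arrays (fibroblast 9.78 against 10.08 and 10.13). Of 12 neutrophil markers 4 fell, among them Ngp (-3.19 ± 0.52; not past the test without AC control 1, AC control 2 or AC injury 2) and Mpo (-2.13 ± 0.29; not without AC injury 2), with a mean of 7.10 to 7.58 in controls and 6.35 to 6.78 after injury. Of 12 fibroblast markers 1 rose, with a mean of 9.305 to 9.74 in controls and 9.78 to 10.13 after injury. By limma, 9 of the 12 fibroblast, 13 of the 17 macrophage and 7 of the 12 neutrophil markers had an unadjusted p under 0.05. Among 9 squamous markers 0 passed in limma, and 0 had an unadjusted p under 0.05. For the 13 cartilage markers these counts were 0 and 1. What these cells contribute to the AC values was not tested.

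**Figure D3:**
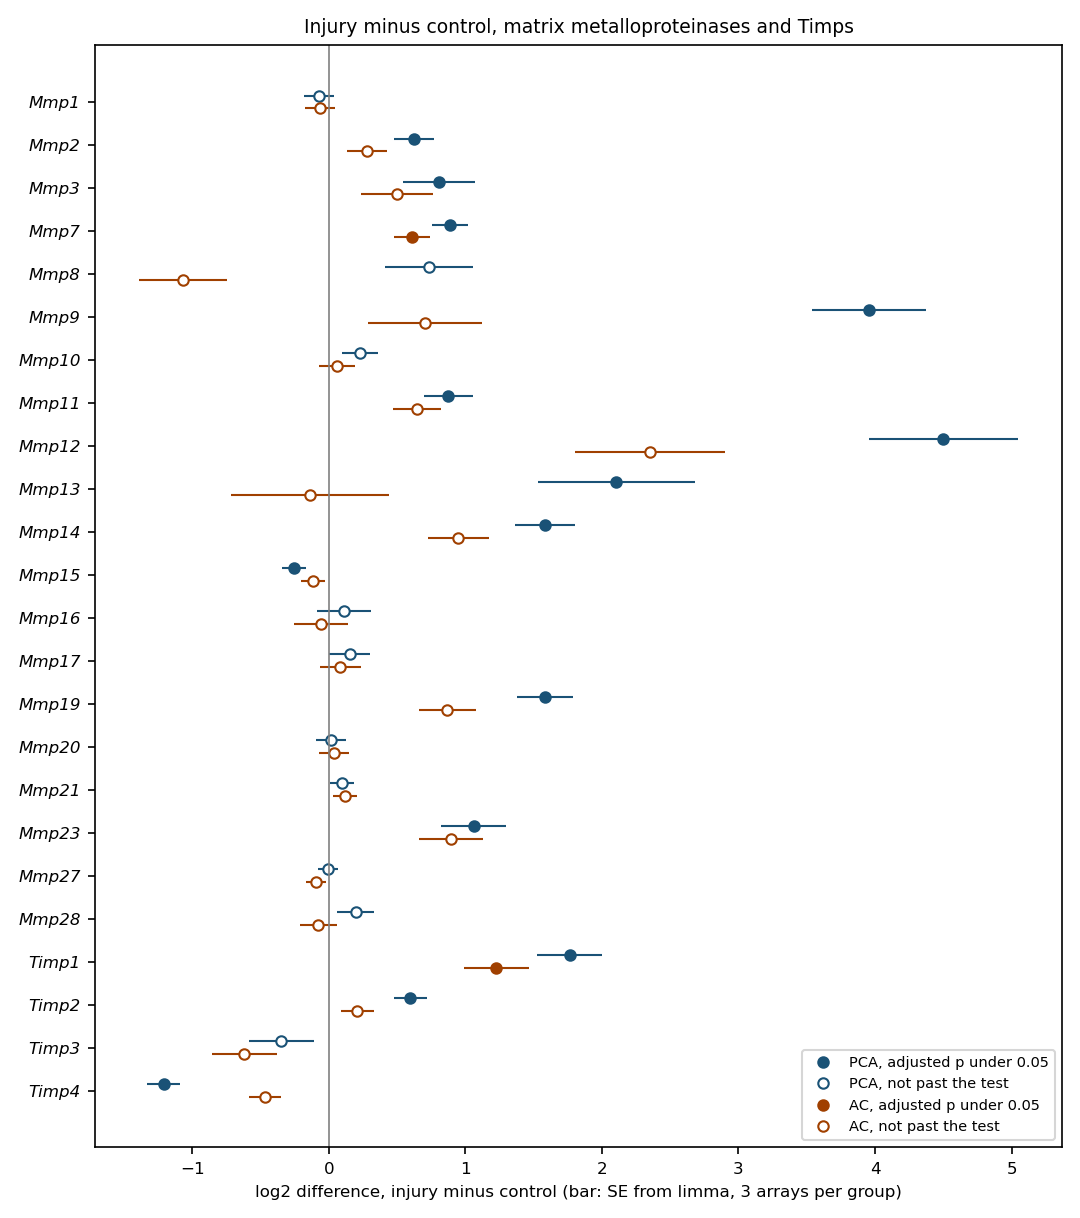
Log2 difference of injury minus control (horizontal axis) in PCA and AC for the 24 measured metalloproteinase and Timp genes; points are limma estimates from 3 arrays per group, bars are SE, and filled points have an adjusted p under 0.05. Mmp12 (4.50) and Mmp9 (3.95) lie farthest right in PCA, Timp4 lies farthest left (-1.21), and in AC the filled points are Mmp7 and Timp1.

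The difference between the injury effects was tested directly as an interaction, injury effect in AC minus injury effect in PCA. In limma 0 of the 9 genes passed (4 had an unadjusted p under 0.05), where 0.154% of all genes passed, 0.0279% as positive and 0.126% as negative. Mmp9 came nearest at -3.25 ± 0.59 (95% interval -4.54 to -1.95; limma adjusted p = 0.0615). It passed without PCA control 2 (-3.24, adjusted p = 0.0327) and with array weights (adjusted p = 0.0352). Mmp13 (-2.25 ± 0.82), Mmp12 (-2.15 ± 0.77) and Timp2 (-0.39 ± 0.17) had unadjusted p-values of 0.0187, 0.0179 and 0.0443, and limma adjusted p-values of 0.21, 0.204 and 0.304. For the remaining genes the difference ran from -0.63 for Mmp14 to -0.27 for Timp3. With 3 arrays per group these intervals are wide, and a p above the threshold does not show that both muscles responded alike.

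A further comparison set the PCA against the AC in control animals. In PCA controls 3 of the 9 genes were lower (Mmp13, Mmp9 and Mmp3) and 0 higher, where 10.6% of all genes passed, 7.39% as lower and 3.24% as higher. PCA minus AC, Mmp13 differed by -3.09 ± 0.58 on the log2 scale, or 8.52-fold (limma adjusted p = 0.00746), with 5.32 to 6.45 in PCA and 8.60 to 9.13 in AC. Mmp9 differed by -2.80 ± 0.42, or 6.95-fold (limma adjusted p = 0.00342), with 5.20 to 5.55 in PCA and 7.97 to 8.40 in AC. Both folds, like that of Mmp3, are against the weak PCA control signals described above. Mmp3 differed by -1.13 ± 0.26 (limma adjusted p = 0.0198) and lost the call without PCA control 1, AC control 2 or AC control 3 (adjusted p = 0.0673, 0.0627 and 0.0709). Timp2 (-0.40 ± 0.12, limma adjusted p = 0.0581), Mmp2 (-0.43 ± 0.15, 0.0929) and Timp1 (-0.51 ± 0.24, 0.202) also lay below the AC without overlap, but did not pass; Timp2 passed without PCA control 2 (-0.52, adjusted p = 0.0214). Mmp2 came to -0.24 without PCA control 1 and Timp1 to -0.32 without AC control 3. Groups did not overlap for 6 of 9, against 33.7% of all genes. These PCA and AC controls are the same arrays that serve as controls in the injury comparisons.

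The control muscles also differed in markers of other cells, where 7.39% of all genes passed as lower in PCA and 3.24% as higher. In PCA controls 9 of 12 neutrophil markers were lower than in AC controls, Ngp among them (-4.38 ± 0.52), as were 8 of 9 squamous and 6 of 17 macrophage markers. Of 9 bone and osteoclast markers 2 were lower, the bone matrix protein osteocalcin, Bglap (-2.13 ± 0.30), and the osteoclast protease Ctsk (-0.84 ± 0.21). The hypertrophic cartilage collagen Col10a1 of the same list was higher (1.90 ± 0.43), and the other 6 did not pass. Of 13 cartilage markers 7 were higher and 1 lower, and of 11 adipocyte markers 9 were higher. The part of these tissues in the Mmp9, Mmp13 and Mmp3 levels was not tested. With the squamous score as a covariate 0 of the 9 genes passed in limma. That score did not overlap between the control muscles, at 8.11 to 10.15 in PCA and 11.03 to 11.51 in AC. This fit therefore cannot separate the score from the muscle. In it Mmp9 differed by -3.59 ± 0.81, Mmp13 by -2.67 ± 1.18 and Mmp3 by -1.37 ± 0.53 (limma adjusted p = 0.357, 0.592 and 0.556). Without the covariate these differences were -2.80 ± 0.42, -3.09 ± 0.58 and -1.13 ± 0.26.

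In injured animals the muscles were not distinguished at these genes. By limma 0 of 9 genes and 0% of all genes passed between injured PCA and injured AC, although Mmp3 (-0.83 ± 0.26) and Mmp12 (1.72 ± 0.55) had unadjusted p-values of 0.00898 and 0.0091. The groups overlapped for all 9 genes; 6.48% of all genes did not, 2.21% with PCA higher and 4.28% with PCA lower. Timp1 averaged 11.50 ± 0.39 (SD, n = 3) in injured PCA and 11.47 ± 0.38 (SD, n = 3) in injured AC. Timp2 averaged 11.83 ± 0.13 and 11.84 ± 0.09 (SD, n = 3 each). Their differences had 95% intervals of -0.50 to 0.55 and -0.28 to 0.25.

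By group mean, Mmp9 and Mmp12 had the order PCA control, AC control, AC injury, PCA injury from lowest to highest. For Mmp9 only the lowest step exceeded the spread, since AC controls and the injured groups overlapped in turn. For Mmp12 the 2 control groups overlapped, as did the 2 injured groups. Mmp14 and Timp1 had that order too, with both injured groups within their spread. Mmp13 ran from PCA control through PCA injury and AC injury to AC control, with the AC groups within 0.14. Mmp3 ran from PCA control through PCA injury and AC control to AC injury. Mmp2 and Timp2 ran from PCA control through AC control and PCA injury to AC injury, with the injured groups within 0.09 and 0.01 of each other. Timp3 was the reverse kind, lowest in injured PCA (10.96) and injured AC (11.01) and highest in AC controls (11.63).

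Other metalloproteinases and the remaining Timp were taken from a list of 19, of which 15 were measured. In injured PCA 4 rose and 2 fell (median 0.15), where 13.3% of all genes passed as higher and 12.5% as lower. Those that rose were Mmp19, a protease of vessel and skin cells (1.58 ± 0.21), Mmp23 (1.06 ± 0.24), the epithelial matrilysin Mmp7 (0.89 ± 0.13) and Mmp11, a stromelysin of stromal cells (0.88 ± 0.18). Timp4, the Timp known from heart, skeletal muscle and fat, fell by 1.21 ± 0.12 (limma adjusted p = 0.000212), opposite to Timp1 and Timp2. Adipocyte markers were lower in the same arrays, with 10 of 11 falling, and their part in the Timp4 value was not tested. The membrane protease Mmp15 fell by 0.26 ± 0.09 (limma adjusted p = 0.0493), a call that held only without PCA injury 3 when arrays were left out in turn (adjusted p up to 0.177). In injured AC Mmp7 rose (0.61 ± 0.13, limma adjusted p = 0.0449; held only without PCA injury 1 or PCA injury 3, adjusted p up to 0.171), while Timp4 (-0.47 ± 0.12, 0.0732) and Mmp19 (0.87 ± 0.21, 0.0597) missed the threshold, Mmp19 passing without AC injury 1. Mmp8, the neutrophil collagenase, differed by 0.73 ± 0.32 in PCA and -1.07 ± 0.32 in AC (limma adjusted p = 0.122 and 0.101; 0.0874 for the difference of the effects) and was lower in PCA than in AC controls (-1.93 ± 0.32, limma adjusted p = 0.00473).

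Within the chromosome 8 row, some genes passed as higher in injured PCA and others did not pass. Of its 10 genes 9 were measured and 4 rose in injured PCA: Mmp13, Mmp12, Mmp3 and, at the other end, Mmp7. Over all genes 13.3% passed as higher there. Mmp13, Mmp12 and Mmp3 are among the genes chosen by name with earlier results of these data known. Between Mmp3 and Mmp7 lie Mmp1 (-0.07 ± 0.11), Mmp10 (0.23 ± 0.13), Mmp8 (0.73 ± 0.32), Mmp27 (-0.01 ± 0.07) and Mmp20 (0.02 ± 0.11), none of which passed. Mmp10 carries the same TGANTCA and TATAAA letters as its neighbours in the sequences above. Of the 9 measured genes 7 had a mean in the dimmest 30% of genes. These were Mmp1, Mmp10, Mmp8, Mmp20 and Mmp27, and also Mmp3 and Mmp7, which passed. The signals of these 7 genes were among the weakest on the arrays, so a missed threshold there does not show an absent response. The rises of Mmp3 and Mmp7 likewise rest on weak signals that were not shown to be above background.

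**Figure D4:**
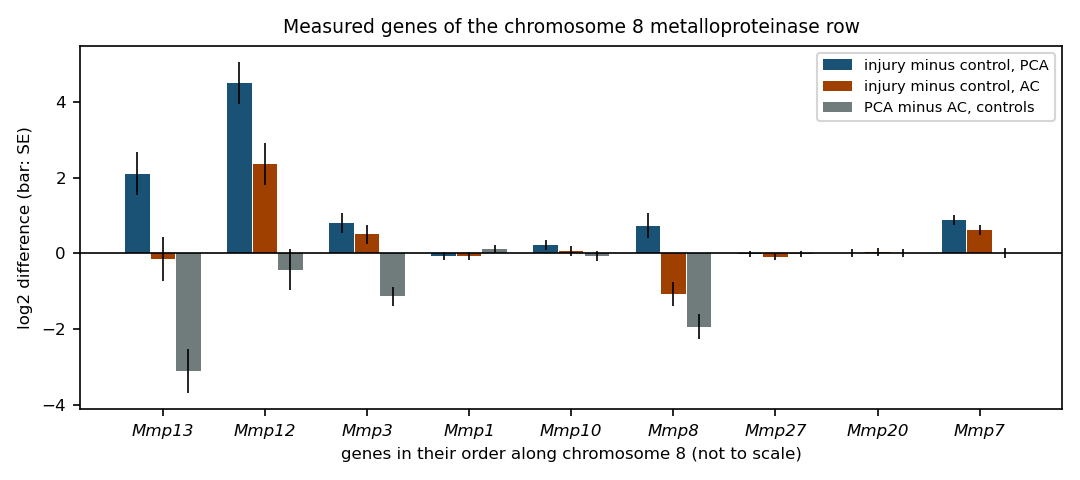
Log2 difference (vertical axis; bars start at 0, error bars are SE from limma) for the 9 measured genes of the chromosome 8 row in genome order, with 3 comparisons per gene. Mmp13 and Mmp12 show the tallest PCA injury bars (2.11 and 4.50), Mmp13 the deepest bar between control muscles (-3.09), and Mmp1, Mmp10, Mmp27 and Mmp20 stay near 0.

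Related proteases and regulators were counted in further lists. Of 12 measured Adam and Adamts proteases 7 rose in injured PCA and 0 fell (median 0.36), and 2 rose in injured AC. Adamts4, an aggrecan-cutting protease, rose by 1.30 ± 0.21 in PCA and 1.12 ± 0.21 in AC (limma adjusted p = 0.00149 and 0.0291), and Adamts7, which cuts cartilage oligomeric matrix protein, by 0.83 ± 0.15 and 0.82 ± 0.15. Of 18 genes of the plasmin system and of metalloproteinase control, 5 rose in PCA and 0 fell (median 0.30), and 2 rose in AC. The plasminogen activator urokinase, Plau, rose by 0.98 ± 0.10 in PCA and 0.56 ± 0.10 in AC (limma adjusted p = 0.000229 and 0.0258), and its receptor Plaur by 1.21 ± 0.20 in PCA. A2m, a broad protease inhibitor of plasma, rose by 1.85 ± 0.24 and 1.32 ± 0.24. Reck, a membrane inhibitor of metalloproteinases, differed by -0.10 ± 0.11 in PCA and -0.34 ± 0.11 in AC and did not pass in either. Without AC control 1, AC control 2, AC injury 2 or AC injury 3, Adamts4, Adamts7, Plau and A2m each lost the call in AC (adjusted p up to 0.131), Plau also without AC control 3. The shares called in PCA and AC over all genes were 25.8% and 1.91%.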

How the data were processed

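The authors deposited log2 expression values for 12 arrays. Per the submitters' processing notes RMA and Partek were used; versions and order are unknown here. Base 2 is an assumption, made because values ran from 2.57 to 14.04. Values scaled between arrays are relative to the other genes. Of 27342 probe sets 15103 have 1 gene symbol, and the probe set with the highest mean was kept per gene (14329 genes). limma 3.58.1 in R 4.3.3 fitted a mean for each of 4 groups over all 12 arrays (8 residual and 3.14 prior degrees of freedom), with two-sided tests, p-values adjusted by Benjamini-Hochberg across every gene, a threshold of 0.05 and no filter.

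The members and lists were chosen with earlier results of these data known. All 9 members are named; from other lists, up to 6 that passed, any other metalloproteinase or Timp, and markers in list order or where a sentence turns on them. Cd68, Mpo, Elane, Ngp, Cxcr2, Csf3r, Fcnb, S100a9, Bglap, Ctsk, Col10a1, Reck, Jun, Fosl1, Il1b and Col3a1 were picked after their values were seen. Marker scores are mean log2 values. Alternatives covered scaling, a filter on dim genes, probe set choice, groups fitted, prior, weights, blocks, covariate, threshold and left-out arrays. Tested on simulated data with 200 changed genes, the fit recovered 58.2%, 88.1% and 98.5% of genes changed 1.5-, 2- and 4-fold for injury in PCA, 65.7%, 92.5% and 100% for injury in AC, and 26.9%, 76.1% and 98.5% for the difference of these effects. The simulated noise was normal, independent between genes, and of the same spread in every group for a given gene. Real genes could spread unevenly, as Mmp12 did (SD 0.04 in PCA controls and 1.39 in injured AC). Recovery of such genes was not measured, so these shares may be too high for them. Plots were made in matplotlib 3.10.9 (Python 3.11.15).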

Additional observations from a re-analysis of the deposited data

How the results depend on the processing

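Across 23 alternatives no member value that passed turned its sign. The 14 sign changes seen were in values that did not pass either way, for Mmp13 in the AC and for 5 members between the injured muscles (Mmp9, Mmp14, Timp1, Timp2 and Timp3). In PCA, 8 members passed, against 5 with only the groups compared fitted, 2 with the squamous covariate and 5 at a threshold of 0.01; leaving out 1 array gave 6 to 8. In AC, 1 passed, against 2 with dim genes left out, 3 with array weights, and 0 with the replicate block, with the squamous score, without the 3 arrays high in thyroid and parathyroid transcripts or at 0.01; leaving out 1 array gave 0 to 3. For the difference of the injury effects, 0 passed, against 1 with array weights and 0 to 1 with 1 array left out. Between control muscles 3 passed, against 0 with the squamous score; leaving out 1 array gave 2 to 4. Between injured muscles 0 passed under every alternative run. In the other protease, regulator and matrix lists no gene that passed turned its sign; with the squamous covariate, their counts in PCA went from 6 to 1 (other metalloproteinases and Timp4), 7 to 0 (Adam and Adamts), 5 to 1 (plasmin system), 8 to 0 (matrix) and 8 to 1 (cytokines and factors). The Adam and Adamts count was 4 to 7 with 1 array left out. With only 2 groups fitted and with fewer arrays, the degrees of freedom are fewer; the cause of the other changes was not tested. Counts over all genes ran from 339 to 3906 in PCA (3697 as reported), 10 to 703 in AC (274), 0 to 406 for the difference of effects (22) and 2 to 2626 between control muscles (1523). Correlations of same-numbered deviations ran from -0.393 to 0.339, the highest between PCA injury 2 and AC injury 2, both high in thyroid and parathyroid transcripts. Whether same-numbered arrays share an animal is not settled by these values. With the replicate block Mmp3 in PCA (adjusted p = 0.0513) and Timp1 in AC (adjusted p = 0.084) lost the call. Fitting only the groups compared is not a separate setting for the difference of effects and was not run there. Mmp3 has no value with dim genes left out. Arrays carry no read depth, and Mmp3 is among the dimmest 30% of genes.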

Other observations

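Genes of the matrix that these proteases cut differed as well. Of 13 measured matrix genes 6 rose and 2 fell in injured PCA (median 0.30, against -0.03 over all genes; 25.8% of all genes passed). The fibrillar collagens Col1a1 (0.84 ± 0.20), Col1a2 (0.88 ± 0.22), Col3a1 (0.76 ± 0.21) and Col5a1 (1.01 ± 0.21) rose, whereas the cartilage genes Acan, the aggrecan core protein (-1.90 ± 0.35), and Col2a1 (-1.20 ± 0.27) fell. Col3a1 lost the call without PCA control 1 or 3 or PCA injury 1 or 2, and Col1a2 without PCA control 1 or PCA injury 1 (adjusted p up to 0.0837 and 0.0538). In the AC 0 of 13 passed in limma (7 had an unadjusted p under 0.05).

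Of 22 measured cytokines and transcription factors known to control metalloproteinase genes 7 rose and 1 fell in injured PCA (median 0.26). Over all genes 13.3% passed as higher there and 12.5% as lower. Those that rose included Tgfb1 (1.48 ± 0.12), the AP-1 members Junb (1.08 ± 0.13) and Fos (0.92 ± 0.23), Il1a (1.27 ± 0.30) and Il1b (1.62 ± 0.43), while Jun (0.12 ± 0.08) and Fosl1 (0.09 ± 0.12) did not pass and Fgf2 fell (-0.89 ± 0.17). Il1b lost the call without PCA control 1, PCA control 3 or PCA injury 1 (adjusted p up to 0.0674). In the AC, Tgfb1 (0.71 ± 0.12) and Runx1 (0.95 ± 0.20) rose, and 1.91% of all genes passed. Tgfb1 lost that call without AC control 1 or 2 or AC injury 2 or 3 (adjusted p up to 0.115), and Runx1 without any of 8 arrays (adjusted p up to 0.166).

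The genes most alike in pattern were found by the root mean square difference over the 12 arrays, each gene centred on its own mean. For Mmp12 these were Lilrb4 (0.472), Gpnmb (0.749) and Ccl9 (0.801), for Mmp9 Clec2dl1 (0.494), Il1rn (0.632) and Gpnmb (0.663). For Mmp14 they were Lgmn (0.105), Unc93b1 (0.127) and RT1-DMb (0.151), and for Timp1 Glipr1 (0.170), Cd53 (0.172) and Fcgr1a (0.180). Mmp2 lay nearest to Antxr1 (0.070) and Timp2 (0.081), and Timp2 nearest to Fstl1 (0.065). Mmp13 lay nearest to C3h15orf48 (0.568), Lypd8l1 (0.706) and S100a9 (0.760). For Mmp3 the nearest were Agtr2 (0.227), Rarres1 (0.238) and Plac8 (0.317), and for Timp3 Prss8 (0.126), Ntn1 (0.155) and Mfsd6 (0.156). Genes that vary little come closer by this measure, so values compare within a member only.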
